A study of Rattus norvegicus with 6 samples.

Results

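The 4 niche adhesion genes Vcam1, Icam1, Cdh2 and Jag1 were examined in rat bone marrow mesenchymal stem cells (rBMSCs) grown in 3D Nichoids or on 2D Nichoids. They were chosen by name, with earlier results of these data known, as surface molecules through which marrow stromal cells contact their neighbours. They are 4 of the 32883 Ensembl gene identifiers counted. All 4 passed the filter on low counts, which left 13523 genes for the test. Both groups held primary cells from the marrow of Lewis rats, used at low passage, at day 4 of culture and no treatment is named for either. A Nichoid is a grid of resin written by laser on a glass coverslip. The 3D Nichoid stacks such grids so that cells can settle inside, while the 2D Nichoid has 1 layer of the same grid and served as the flat control. RNA was sequenced from 3 libraries per group, named by the replicate letters A, B and C. No source used here says that the letters stand for separate animals. The tests therefore judge a difference against variation between these libraries, which may be technical. That variation is estimated with information shared over all genes. The 3D libraries held 38747857 to 41860684 counts each, and the 2D libraries 38353363 to 39112286.

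Vcam1 and Icam1 are adhesion receptors of the immunoglobulin superfamily. They bind integrins on leukocytes and blood progenitors, and inflammatory signals acting through NF-κB are known to induce both. Vcam1 is also a marker of marrow stroma, where it helps to hold blood stem cells. Cdh2 encodes N-cadherin, a calcium-dependent protein that joins neighbouring cells by binding to itself. Jag1 encodes Jagged1, a membrane-bound ligand that activates Notch receptors on an adjacent cell. It is also counted among the target genes of YAP, a factor that responds to cell shape and tension.

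After 4 days, Jag1, Vcam1 and Icam1 were higher in 3D than in 2D Nichoids, and the difference in Cdh2 did not pass the test. Jag1 was 2.04-fold higher (95% interval 1.88 to 2.21), Vcam1 1.60-fold (1.28 to 2.00) and Icam1 1.30-fold (1.22 to 1.39). Cdh2 stood at 0.950-fold (0.716 to 1.26). With the threshold set at an adjusted p value of 0.05, 37.8% of all genes tested were called, 18.9% as higher and 18.8% as lower in 3D Nichoids. The median log2(FC) of the 4 genes was 0.53, against -0.006 over all genes tested. As the 4 genes were chosen with earlier results known, their median is a description only. The identifiers are ENSRNOG00000014333 for Vcam1, ENSRNOG00000020679 for Icam1, ENSRNOG00000015602 for Cdh2 and ENSRNOG00000007443 for Jag1.

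NF-κB, named above for Vcam1 and Icam1, and YAP, named above for Jag1, work through binding sites in DNA. No promoter sequence of Cdh2 was available here. The sequences before the start sites of Vcam1, Icam1 and Jag1 are therefore shown. They are 250 bases long, taken from RefSeq on the build GRCr8, read 5′ to 3′ along the gene and ending at the base before the start. RefSeq places Vcam1 on chromosome 2, Icam1 on chromosome 8, Cdh2 on chromosome 18 and Jag1 on chromosome 3. The counts were made on another build, Rnor_6.0 per the labels, so these positions do not apply to the counts. The Vcam1 stretch is chr2:206742784-206743033 (minus strand), that of Icam1 chr8:27829595-27829844 (plus strand) and that of Jag1 chr3:144894884-144895133 (minus strand). Capitals mark matches on either strand to 3 patterns. They are GGGRNNYYCC for the kappaB consensus of NF-κB, GGAATG (bound by TEAD factors, the partners of YAP) and TGGGAA (bound by RBPJ, the effector of Notch). In the first, R is A or G, Y is C or T and N is any base. Stretches that depart from a pattern at any base stay in lower case.
Vcam1: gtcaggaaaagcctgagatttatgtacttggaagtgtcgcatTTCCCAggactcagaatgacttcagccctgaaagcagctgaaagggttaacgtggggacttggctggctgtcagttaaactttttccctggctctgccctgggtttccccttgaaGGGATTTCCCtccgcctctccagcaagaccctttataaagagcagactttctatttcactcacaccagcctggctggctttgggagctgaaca
Icam1: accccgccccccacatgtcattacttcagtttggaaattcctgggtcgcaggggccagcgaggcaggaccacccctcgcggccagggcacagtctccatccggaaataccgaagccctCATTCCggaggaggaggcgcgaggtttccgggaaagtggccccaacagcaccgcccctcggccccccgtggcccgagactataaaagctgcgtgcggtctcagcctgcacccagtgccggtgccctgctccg
Jag1: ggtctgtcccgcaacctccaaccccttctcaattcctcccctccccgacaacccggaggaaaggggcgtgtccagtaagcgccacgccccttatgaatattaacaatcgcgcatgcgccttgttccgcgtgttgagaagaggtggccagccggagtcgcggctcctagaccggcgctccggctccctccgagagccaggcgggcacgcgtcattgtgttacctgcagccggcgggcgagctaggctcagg

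Vcam1 held 1 kappaB match that began 93 bases before the start, and kappaB matches were present in 7.51% of the 33469 RefSeq promoters of 300 bases. The stretch gggtttcccc just before this match was not counted, as it has T where the pattern asks for A or G. Vcam1 also held TGGGAA on the opposite strand, beginning 208 bases before the start and again at base 4 of the transcript, beyond the printed part. That motif was present in 25.7% of promoters. Icam1 held GGAATG on the opposite strand, beginning 132 bases before the start, as did 14.2% of promoters on either strand. It held no full match to the kappaB pattern. Its stretch tggaaattcc has T where that pattern asks for G and so was not marked. Jag1 held none of these letters in its promoter of 300 bases. No match overlapped another. A match of letters describes the sequence and is not a measured site, and its absence says nothing of a factor.

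Levels are given as CPM, the counts of a gene per 1000000 counts of its library after correction of the library total by the TMM factors of edgeR. They compare a gene between libraries and not with another gene, since gene length was not used. In bulk RNA, more cells that express a gene and more RNA per cell cannot be told apart.

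Vcam1 had 336, 313 and 320 counts in the 3D libraries (A, B and C in this order throughout), and 231, 201 and 191 in the 2D libraries. In CPM these were 8.34, 8.35 and 8.25 against 5.82, 5.06 and 4.70. The 3D libraries lay almost on top of each other and all above the 2D libraries, with a gap of 2.43 CPM between the nearest ones. The means were 8.31 ± 0.053 and 5.19 ± 0.571 CPM (SD, n = 3 each). The log2(FC) was 0.68 (SE 0.16, adjusted p value 0.000679, quasi-likelihood test of edgeR). The study also asked for a log2(FC) above 1 in size, which Vcam1 did not reach here. It reported Vcam1 as overexpressed in 3D Nichoids by sequencing and by RT-PCR, and its text gives no log2(FC) for this gene. The spread in 3D Nichoids, 0.642% of the mean, was smaller than the 5.56% that counting alone gives at this depth, whereas in 2D Nichoids it was 11.0% against 6.94%.

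Icam1, the other immunoglobulin-type receptor, had 3668, 3573 and 3454 counts in the 3D libraries, compared with 2867, 2822 and 2769 in the 2D libraries. In CPM it stood at 91.0, 95.3 and 89.1 against 72.2, 71.1 and 68.1. The groups did not overlap, and the nearest libraries were 16.8 CPM apart. The means were 91.8 ± 3.20 and 70.5 ± 2.10 CPM (SD, n = 3 each). Its log2(FC), the smallest of the 3 that passed, was 0.38 (SE 0.05, adjusted p value 1.67e-08, edgeR). Its mean count in the 3D libraries was 3565, against 323 for Vcam1, and its standard error was the smaller.

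Jag1, the Notch ligand, gave 3506, 3384 and 3456 counts in the 3D libraries, whereas the 2D libraries gave 1824, 1823 and 1575. In CPM these were 87.0, 90.3 and 89.1 against 46.0, 45.9 and 38.8. Every 3D library lay at least 41.0 CPM above every 2D library. The means were 88.8 ± 1.66 and 43.5 ± 4.14 CPM (SD, n = 3 each), and the log2(FC) was 1.03 (SE 0.06, adjusted p value 1.26e-18, edgeR). Of all genes tested, 440 had a log2(FC) at least as high. The study likewise reported Jag1 as overexpressed in 3D Nichoids, and listed it with target genes of activated YAP. By staining, the study found YAP mainly in the nucleus in most cells on the flat control. In 3D Nichoids this held for only a small share of cells, and YAP had moved to the cytoplasm. The rise in Jag1 thus came with less YAP in the nucleus, and whether YAP acted on Jag1 here was not tested.

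Jag1 was the 1 gene of the 4 that met both cutoffs of the study, which ask for a log2(FC) above 1 in size besides the adjusted p value. Over all genes tested, 3.42% met them, and 2.06% met them as higher in 3D Nichoids. It lay close to the second cutoff, as its 95% interval ran from 0.91 to 1.15. Without 2D Nichoid replicate C, which had the lowest Jag1 level, the log2(FC) was 0.95 and the cutoff was not met. Scaling by total counts alone gave 0.93. That scaling moved the median of all genes by 0.10. Relative to the median the log2(FC) of Jag1 was 1.03 with either scaling. A change of scaling shifts all genes nearly alike, so this value could hardly differ and is no test of Jag1.

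Cdh2, which encodes N-cadherin, had 198, 166 and 175 counts in the 3D libraries, and 158, 260 and 165 in the 2D libraries. In CPM it stood at 4.91, 4.43 and 4.51 against 3.98, 6.55 and 4.06. The groups overlapped: 2D Nichoid replicate B was the highest of all 6 libraries, and 2D Nichoid replicates A and C were the lowest. The means were 4.62 ± 0.259 and 4.86 ± 1.46 CPM (SD, n = 3 each). The spread in 2D Nichoids was 30.0% of the mean, against 7.17% from counting alone. The log2(FC) was -0.07 (SE 0.20, adjusted p value 0.814, edgeR), with a 95% interval from -0.48 to 0.33. The sign rested on replicate B, since without it the log2(FC) was 0.20 (SE 0.21, adjusted p value 0.499, edgeR). The study stained the N-cadherin protein, which is another measure than RNA. It reported a slight increase in 3D Nichoids that was not significant, and a different location of the protein in the cells.

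**Figure D1:**
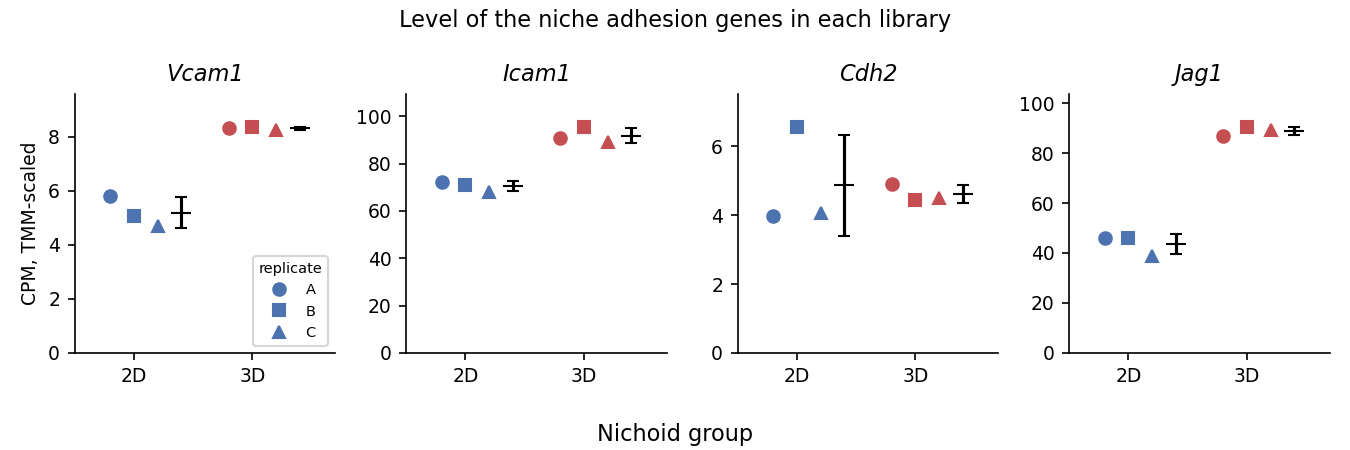
Level of each gene in CPM (linear axis from 0) in every library of the 2D and 3D Nichoids. Points are libraries, with replicates A, B and C as circle, square and triangle, and the black bar is the mean ± SD (n = 3). Vcam1, Icam1 and Jag1 do not overlap between the groups, while the 2D Nichoid replicate B of Cdh2, at 6.55 CPM, lies above all 3D libraries.

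In 3 of the 4 genes the groups did not overlap, in each with the 3D libraries above. Over all genes tested, 46.9% did not overlap in either direction and 23.6% did not overlap with 3D Nichoids higher. At mean normalized counts of 100 to 500, where Vcam1 and Cdh2 lie, 28.7% of genes were called in either direction. At 1000 to 5000, where Icam1 and Jag1 lie, 48.9% were called. Of all genes tested, 96.7% had a lower log2(FC) than Jag1, 93.1% a lower one than Vcam1, 85.1% a lower one than Icam1 and 40.5% a lower one than Cdh2. The 2D Nichoid replicate C was the lowest library of its group in 3 of the 4 genes, and Cdh2 was lowest in replicate A. In 3 of the 4 genes the spread relative to the mean was larger in 2D than in 3D Nichoids. Icam1 was the exception, with 2.99% in 2D and 3.48% in 3D Nichoids. How often either pattern occurs over all genes tested was not computed, so neither is read as a trait of these genes.

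**Figure D2:**
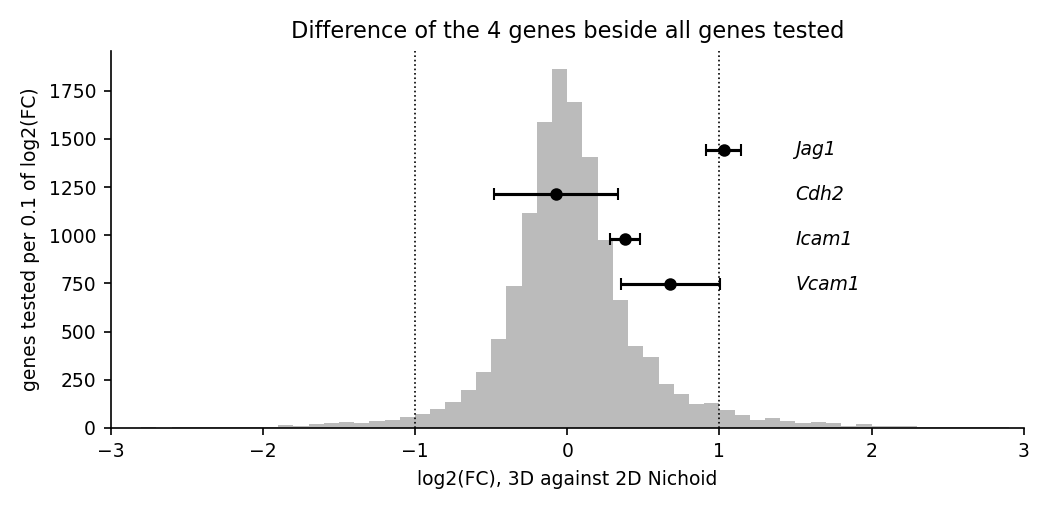
Grey bars count the genes tested in steps of 0.1 of log2(FC), 3D against 2D Nichoids, and 37 genes beyond 3 in size are not drawn. Points are the 4 genes with their 95% intervals, placed at heights of no meaning, and dotted lines mark a log2(FC) of 1 in size. Jag1 sits on the upper line at 1.03, Vcam1 at 0.68 and Icam1 at 0.38 lie to the right of the peak, and Cdh2 at -0.07 lies within it.

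Ratios of counts between 2 genes of the same library do not depend on how libraries are scaled, so they compare the response of one gene with that of another. All 6 pairs were compared. The ratio of Icam1 to Jag1 was 1.05, 1.06 and 0.999 in the 3D libraries, whereas it was 1.57, 1.55 and 1.76 in the 2D libraries. On the log2 scale it was lower in 3D Nichoids, by -0.65, since Jag1 differed more than Icam1. The ratio of Jag1 to Vcam1 was 10.4, 10.8 and 10.8 in the 3D libraries against 7.90, 9.07 and 8.25 in the 2D libraries, a log2 difference of 0.35. The ratio of Icam1 to Vcam1 was 10.9, 11.4 and 10.8 against 12.4, 14.0 and 14.5, a log2 difference of -0.30. In these libraries the differences were ordered Jag1, Vcam1, Icam1, from high to low.

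Against Cdh2, each of the other genes had a higher ratio in 3D Nichoids. The log2 difference was 1.07 for Jag1, 0.72 for Vcam1 and 0.42 for Icam1. Without 2D Nichoid replicate B these differences were 0.87, 0.47 and 0.19. The groups did not overlap in any of the 6 ratios, which share 4 genes and are not independent. Among all pairs of tested genes with a count in every library, 42.9% did not overlap. Each ratio gave p = 0.1 in a two-sided exact permutation test (0.1 after Benjamini-Hochberg adjustment over the 6 pairs), the smallest p that 3 libraries against 3 allow, so none can pass a threshold of 0.05.

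**Figure D3:**
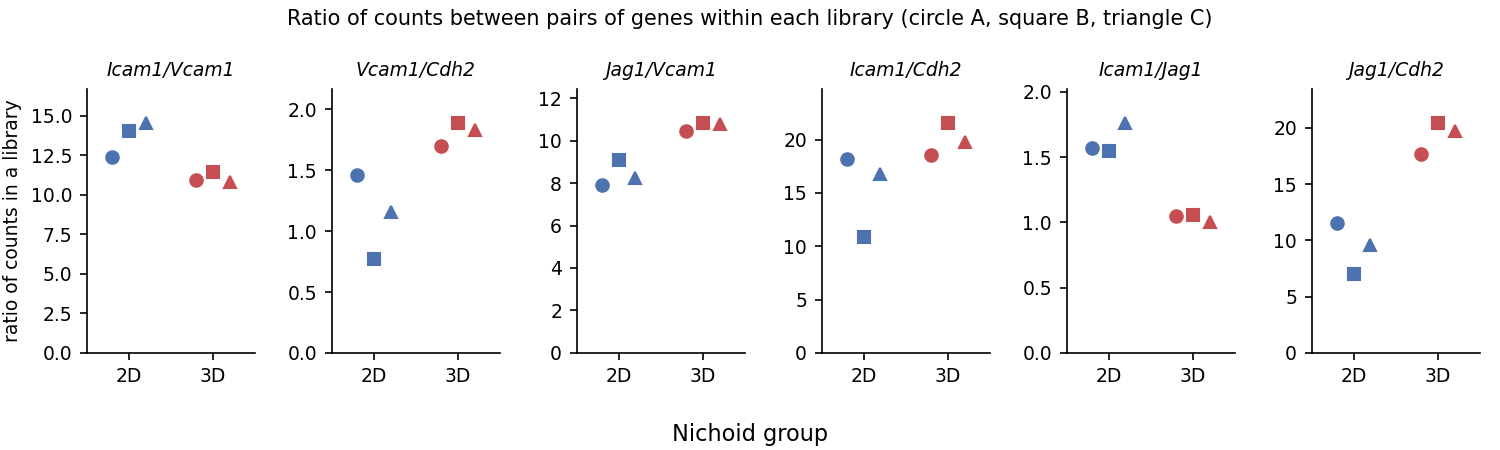
Ratio of counts within each library for the 6 pairs of genes, on linear axes from 0 with a scale of their own, in 2D and 3D Nichoids. Points are libraries, with replicates A, B and C as circle, square and triangle. Icam1 and Jag1 counts are near equal in 3D Nichoids, from 0.999 to 1.06, and lie from 1.55 to 1.76 in 2D Nichoids, while the ratios to Cdh2 spread most in 2D Nichoids.

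For each gene, the gene tested whose log2 CPM followed it most closely over the 6 libraries was sought by Pearson's r, as a description. Because the groups stand apart, such an r mostly reflects the difference between them. Vcam1 was followed most closely by ENSRNOG00000032240 (r = 0.999), with 60, 52 and 54 counts in the 3D libraries but 21, 15 and 12 in the 2D libraries. Its log2(FC) was 1.82 (SE 0.52, adjusted p value 0.00501, edgeR). Icam1 was followed by ENSRNOG00000015439 (r = 0.998). It was counted 15381, 14598 and 14697 times in the 3D libraries, while the 2D libraries had 14082, 13904 and 13977. Here the log2(FC) was 0.13 (SE 0.02, adjusted p value 3.19e-05, edgeR). An r above 0.95 was reached by 998 genes for Jag1, 828 for Icam1 and 794 for Vcam1, and by 9 genes for Cdh2, which had 1 high library among the 2D Nichoids.

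**Figure D4:**
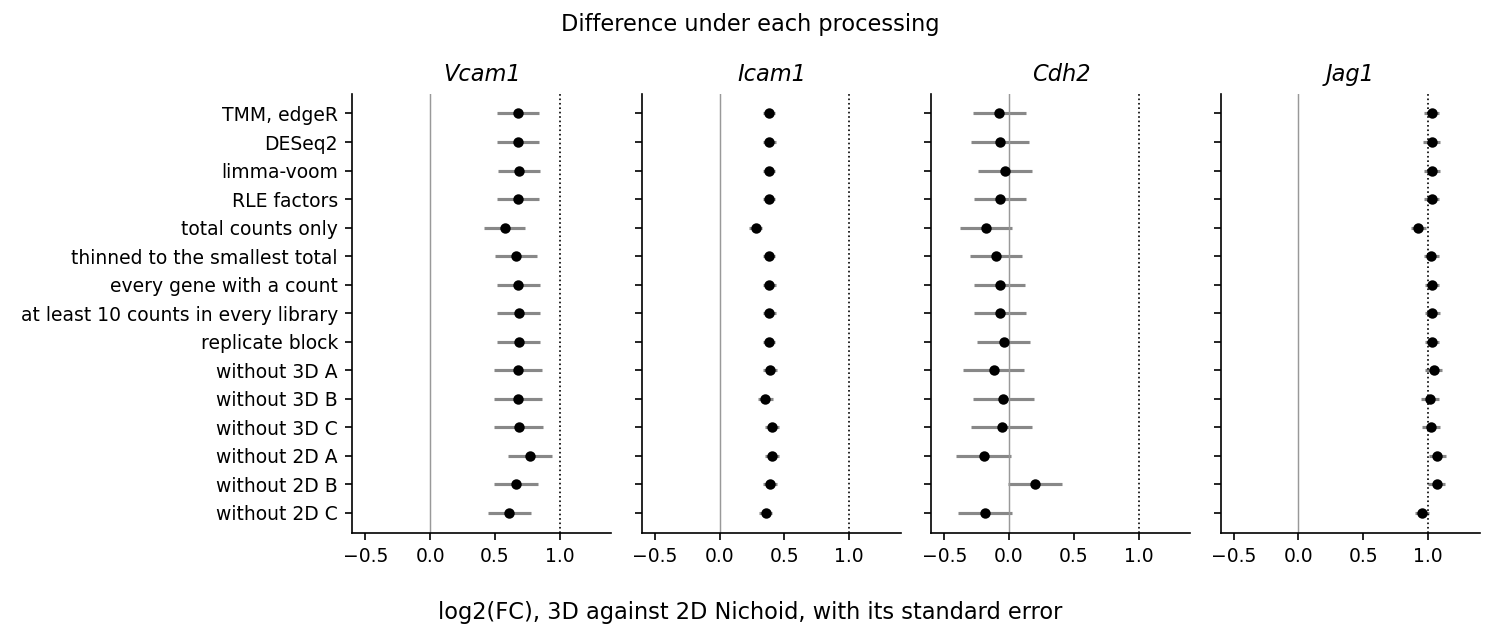
Difference of each gene, 3D against 2D Nichoids, as log2(FC) with its standard error (bars) under each processing and with each library left out. The solid line marks 0 and the dotted line 1. Vcam1 and Icam1 stay between these lines, Jag1 falls under 1 with total counts only (0.93) and without 2D Nichoid replicate C (0.95), and Cdh2 changes sign without 2D Nichoid replicate B (0.20).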

How the data were processed

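Total RNA of rBMSCs was sequenced at day 4 from 3 libraries in 3D Nichoids and 3 on 2D Nichoids, grouped by their labels. The deposited values are read counts per Ensembl gene without normalization, made by the authors from single-end reads that were mapped with STAR 2.7.0a and counted with HTSeq. The labels name the build Rnor_6.0 and HTSeq 0.12.4, while the text of the study names other versions of both. Handling of strand, of PCR copies and of reads that align to several genes is not given in the sources used here. In the RefSeq annotation of GRCr8, 0 genes overlapped any of the 4 genes.

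The 4 genes, the lists and the tests were chosen with earlier results of these data known. Gene symbols came with the chosen identifiers. The RefSeq gene table held 0 Ensembl identifiers, so that pairing could not be checked, and the lists of integrins, cadherins, Notch, NF-κB and selectin genes and of cell type markers were not analysed here. The labelled cell type was therefore not checked.

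Counts of all genes were filtered with filterByExpr, scaled by TMM and tested with the robust quasi-likelihood test of edgeR 4.0.16 (R 4.3.3), with Benjamini-Hochberg adjustment over 13523 genes and no covariates. The standard error is the log2(FC) divided by the square root of F. DESeq2 1.42.0, limma 3.58.1, other scalings and filters, thinning, the replicate letter as a block and each library left out served as alternatives. The procedure was also run on simulated data, and the outcome of that run is not reported here. Named were the 4 genes and, for each, the gene most like it, of which at most 2 identifiers per direction are printed. Ratios and promoter motifs were computed in Python 3.11.15.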

Additional observations from a re-analysis of the deposited data

How the results depend on the processing

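Vcam1, Icam1 and Jag1 were higher in 3D Nichoids and past the adjusted p value in all 14 alternative fits that tested the log2(FC) against 0, including DESeq2 and limma-voom. The adjusted p value reached at most 0.00523 for Vcam1, 7.84e-06 for Icam1 and 2.97e-13 for Jag1. With each library left out, the log2(FC) ranged from 0.61 to 0.77 for Vcam1, 0.35 to 0.40 for Icam1 and 0.95 to 1.07 for Jag1. For Cdh2 it ranged from -0.20 to 0.20, and it reversed to 0.20 without 2D Nichoid replicate B. Its adjusted p value lay between 0.499 and 0.925 in all 14 fits. When the log2(FC) was tested against 1, the values of 0.68, 0.38 and 1.03 stood but none passed, 0 of the 4 genes met either rule (edgeR, 0 of 4 also at an unadjusted p under 0.05) and 89 of all genes passed, because that test asks for more than a difference from 0. With a log2(FC) cutoff of 1, 463 of the 5109 genes past the adjusted p value remained. The number of the 4 genes that met both cutoffs fell from 1 to 0 with total counts only, and lay between 0 and 1 with each library left out. Total counts only changed the share of called genes that were higher from 50.1% to 28.2%. With the replicate block, the log2(FC) was 0.68, 0.38, -0.04 and 1.03 for Vcam1, Icam1, Cdh2 and Jag1, and it changed the call of none of these 4 genes. Over all genes, 5132 passed with the block and 5109 without it. No pairing of libraries by letter was seen: the deviations of libraries with the same letter from their group means correlated by 0.03, -0.01 and 0.02 for A, B and C. Genes with few counts weigh as much as others in this correlation, so a weak pairing could be missed. At this depth, counting alone gives a spread in 2D Nichoids of 6.94% for Vcam1 and 7.17% for Cdh2, against 1.88% for Icam1 and 2.40% for Jag1. The observed spread was larger in all 4, at 11.0%, 30.0%, 2.99% and 9.51%, and its source was not tested.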
